A study of Mus musculus with 3 samples.

Results

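Subcluster 3 of the follicular helper T cells (Tfh), a group of cells led by the secreted protein gene Sostdc1 and the transcription factor gene Egr3, is described here. Its members are the cells that the authors' table of Tfh cells numbers 3, matched to the count matrices by barcode. They are 2534 of the 13784 Tfh entries and of the 18693 follicular T cell entries in all. There were 1309 members among 6389 Tfh cells in the knockout library, 616 among 3727 in the first wild-type run and 609 among 3668 in the second.

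The study sorted Tfh cells and follicular regulatory T cells (Tfr) from the spleens of mice immunised with ovalbumin in liposomes, 14 days after immunisation, and counted the RNA of single cells. The BKO group has the genotype Siglec-G B-cell knockout and the WT group is wild type; both received the same immunisation. Siglec-G restrains the B cell receptor and recognises sialic acids; its gene was removed in B cells, while the RNA measured here is that of T cells. The sources used here do not give the promoter or Cre line behind the knockout, the age and number of the mice or any pooling of animals.

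Tfh cells sit in germinal centres and help B cells through CD40 ligand, interleukin 21 and interleukin 4. Engagement of their T cell receptor (TCR) by antigen on B cells raises calcium and MAP kinase signals that quickly induce the zinc finger factors of the Egr family and the orphan nuclear receptors of the Nr4a family, and Egr2 and Egr3 in turn act in Tfh differentiation. Sostdc1 encodes a secreted antagonist of BMP and Wnt signals, and Tfh cells that secrete it have been described in mice in connection with the formation of Tfr cells.

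The samples labelled WT replicate 1 and WT replicate 2 hold the same cells and are called WT run 1 and WT run 2, so each genotype has 1 library, no test across samples exists and no p-value is given. Of 661 distinct WT member barcodes, 564 were members in both runs, which is 91.6% of the members of run 1 and 92.6% of those of run 2. BKO and WT run 1 carry the same batch label and WT run 2 another. Members had a median of 6766 UMIs (counted molecules) and 2592 genes in BKO, 4591 UMIs and 2127 genes in WT run 1, and 7479 UMIs and 2853 genes in WT run 2. The BKO and WT counts come from different Cell Ranger releases, and the sources used here do not give how each handled intron reads. Siglecg, the gene removed in B cells, had 0 UMIs in the members of every sample, and 1 UMI in BKO, against 4 in each WT run, over all annotated cells, so the T cell libraries check little of the genotype. Levels are summed UMIs scaled as CPM, the counts of a gene relative to an equal total for each group of cells. Intervals are at 95%, exact, and speak of counting error alone.

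The label of the subcluster was borne out by its 3 marker genes in every sample. Sostdc1 (ENSMUSG00000036169, chr12:36314139-36318452, plus strand, mm10) stood at 1070 CPM in BKO, 1095 CPM in WT run 1 and 995 CPM in WT run 2 in the members. In the other Tfh cells it stood at 65.2 CPM in BKO, 67.2 CPM in WT run 1 and 63.6 CPM in WT run 2. The intervals in the members were 1050 to 1091 in BKO, 1058 to 1132 in WT run 1 and 967 to 1023 in WT run 2 CPM, and the folds, with 0.5 CPM added to both levels, were 15.5 to 16.3. Egr3 (ENSMUSG00000033730, chr14:70077203-70082614, plus strand) stood at 75.5 CPM in BKO, 82.7 CPM in WT run 1 and 81.5 CPM in WT run 2 in the members, against 5.03 to 6.61 CPM in the other Tfh cells. Il21, the cytokine that drives B cells into the germinal centre and plasma cell fates, stood at 149.6 CPM in BKO, 135 CPM in WT run 1 and 152 CPM in WT run 2 in the members. In the other Tfh cells Il21 stood at 50.1 CPM in BKO, 25.8 CPM in WT run 1 and 28.6 CPM in WT run 2. Since the authors clustered the cells on such genes, these and all differences between members and other Tfh cells are descriptions.

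General Tfh and T cell genes were present both inside and outside the subcluster. Bcl6, the defining factor of Tfh cells, stood at 235 to 272 CPM in members and 152 to 168 CPM in the other Tfh cells. Cxcr5, the receptor that leads T cells into follicles, stood at 217 to 229.8 CPM in members and 193 to 232 CPM elsewhere. Pdcd1, the receptor PD-1, stood at 349 to 390.0 CPM in members and 213 to 279 CPM elsewhere, and Icos, a costimulatory receptor of Tfh cells, at 344 to 350.3 CPM in members and 244 to 277 CPM elsewhere. The helper T cell marker Cd4 stood at 421 to 487 CPM in members and 347 to 384 CPM elsewhere. None of these passed the rule of size used below. Foxp3, the factor of regulatory cells, gave 13 UMIs in the members of BKO, 0 in those of WT run 1 and 40 in those of WT run 2. The B cell gene Ms4a1 was at 0 UMIs in the members of every sample, and the summed level of the 14 B cell markers was 391 to 436 CPM in members and 481 to 536 CPM in the other Tfh cells.

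To be called higher or lower, a gene had to lie in members at least 1.5 times beyond the other Tfh cells in each of the 3 samples, among genes that averaged at least 50 CPM in members or in the other Tfh cells. Of 3829 genes measured in this way, 174 were higher (4.54%) and 56 lower (1.46%), with a median log2 fold of 0.03 in each sample over all genes. The higher genes were led, after Sostdc1, by Ralyl, Nr4a3, Hs6st3, Egr3, Egr2, Dgki, Nr4a1, Tmcc3, Spp1, Nrgn, Fbn2, Cacna1d, Tagap and Egr1.

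**Figure D1:**
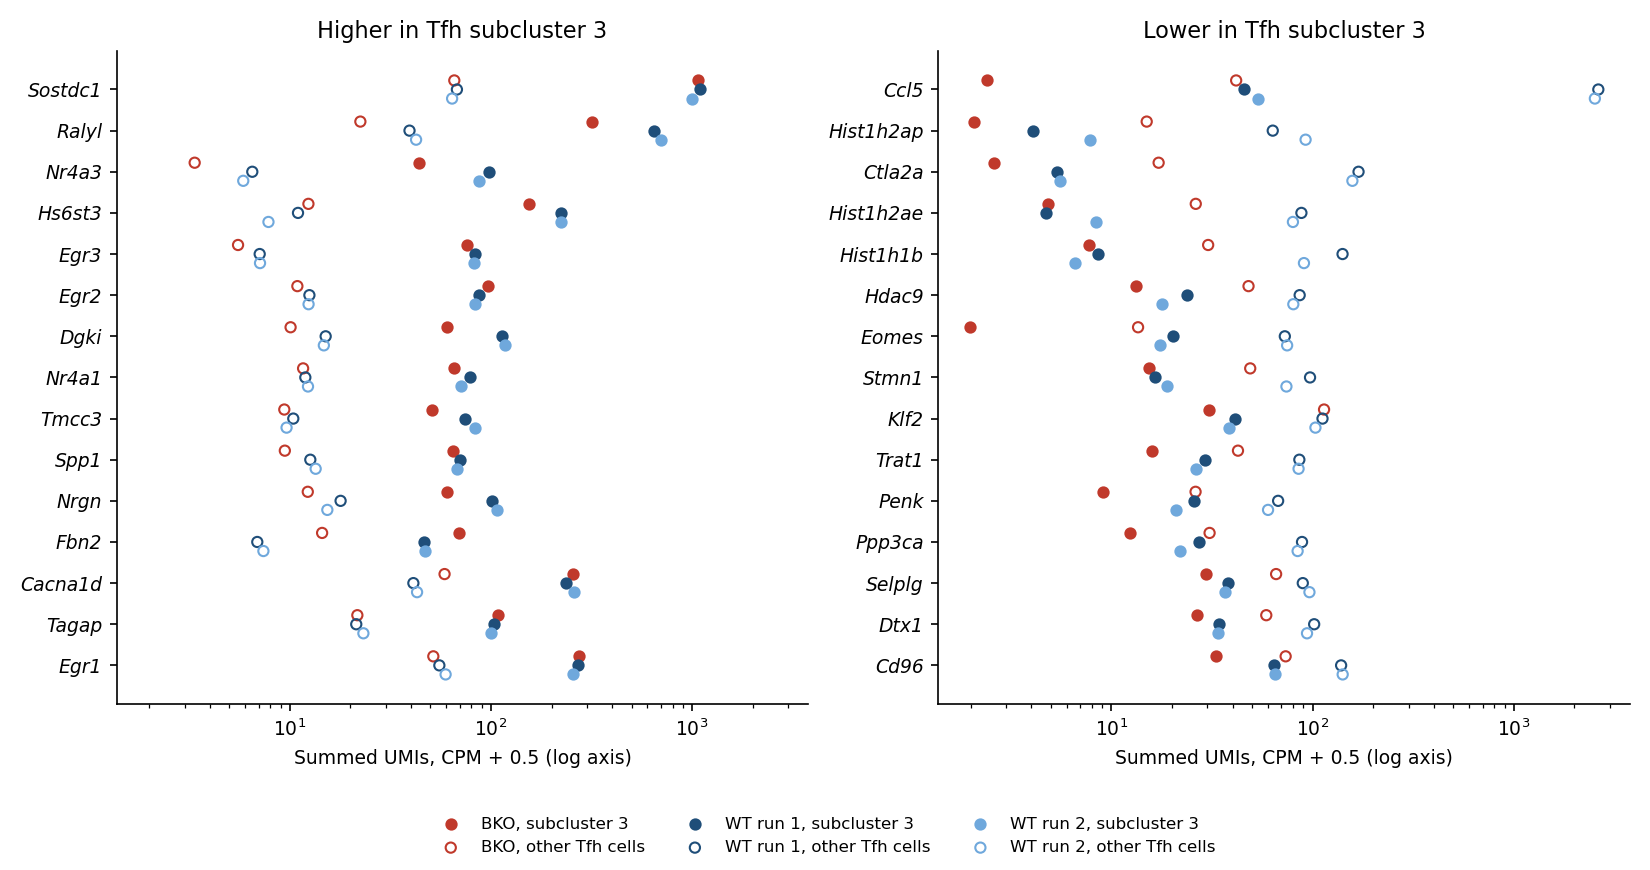
Summed UMIs (CPM with 0.5 added, log axis) of the 15 named genes of highest fold in each direction. Filled points are members of Tfh subcluster 3 and open points the other Tfh cells of the same sample, in red for BKO and in blue for the WT runs; in each row all filled points lie to one side of all open points of their own sample.

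Of the leading genes outside the Egr and Nr4a families, Ralyl, which encodes an RNA-binding protein and is best known from brain, stood at 318 CPM in BKO, 642 CPM in WT run 1 and 697 CPM in WT run 2 in members, against 21.9 to 41.9 CPM in the other Tfh cells. Hs6st3, a heparan sulfate sulfotransferase, stood at 154 CPM in BKO, 224 CPM in WT run 1 and 221 CPM in WT run 2, against 7.33 to 11.9 CPM. The BKO members lay below the WT members for both genes, while in every sample the members stood far above the pooled other Tfh cells. Subcluster 6 also held Ralyl, at 295 CPM in BKO (261 to 332), 297 CPM in WT run 1 and 335 CPM in WT run 2. Its BKO interval overlaps that of the BKO members (307 to 330). The remaining subclusters held Ralyl at 3.16 to 64.3 CPM. Dgki, a kinase that consumes the second messenger diacylglycerol, reached 59.9 to 118 CPM in members and 9.59 to 14.6 CPM elsewhere. Nrgn, a calmodulin-binding protein, reached 59.9 to 107 CPM in members and 11.8 to 17.4 CPM elsewhere. Cacna1d, a subunit of a voltage-gated calcium channel, reached 237 to 257 CPM in members and 40.6 to 58.3 CPM elsewhere. Spp1, which encodes osteopontin, stood at 64.6 to 69.8 CPM in members and 8.94 to 12.9 CPM elsewhere, and Fbn2, a matrix fibrillin, at 46.1 to 68.7 CPM in members and 6.39 to 14.0 CPM elsewhere.

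The early response factors of the Egr and Nr4a families were high as a group: 5 of 6 measured genes of the list were higher and 0 lower. Egr2, a partner of Egr3 in Tfh cells, stood at 96.1 CPM in BKO, 86.6 CPM in WT run 1 and 82.7 CPM in WT run 2 in members, against 10.4 to 12.0 CPM in the other Tfh cells. Egr1 stood at 272 CPM in BKO, 269.6 CPM in WT run 1 and 254 CPM in WT run 2, against 51.2 to 59.0 CPM, and Nr4a1 at 64.7 CPM in BKO, 78.5 CPM in WT run 1 and 70.4 CPM in WT run 2, against 11.1 to 11.8 CPM. Nr4a3 stood at 43.2 CPM in BKO, 97.0 CPM in WT run 1 and 87.2 CPM in WT run 2, against 2.86 to 6.01 CPM. Nr4a3 was the only one of these 5 for which BKO members lay 1.5 times or more below both WT runs. Nab1, a corepressor of Egr factors, was the measured gene without a call, at 136 to 144 CPM in members and 106 to 116 CPM elsewhere. Fos, another early response gene, stayed under the minimum, at 17.8 CPM in BKO, 41.5 CPM in WT run 1 and 33.6 CPM in WT run 2 in members, against 3.45 to 3.95 CPM.

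Promoter sequences were available for 124 of the 174 higher genes, from RefSeq on GRCm38.p6 (the assembly named mm10), as windows of 250 bases before to 50 bases after the start of transcription. Those of Nr4a3, Nr4a1 and Egr2 are shown because these factors were high together and the cyclic AMP response element core TGACG, on either strand (CGTCA on the printed strand), and the CArG box bound by serum response factor are the known entry points of TCR signals to early genes. Egr1 and Egr3, which were also high, are not shown. Capitals mark the cores and, in Egr2, the CArG box near the middle.
Nr4a3 (chr4:48045055-48045354, plus strand): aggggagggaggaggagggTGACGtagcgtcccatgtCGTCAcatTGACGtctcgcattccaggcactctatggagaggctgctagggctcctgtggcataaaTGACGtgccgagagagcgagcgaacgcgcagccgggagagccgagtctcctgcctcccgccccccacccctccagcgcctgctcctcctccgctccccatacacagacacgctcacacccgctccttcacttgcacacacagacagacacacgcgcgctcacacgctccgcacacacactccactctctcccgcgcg
Nr4a1 (chr15:101266596-101266895, plus strand): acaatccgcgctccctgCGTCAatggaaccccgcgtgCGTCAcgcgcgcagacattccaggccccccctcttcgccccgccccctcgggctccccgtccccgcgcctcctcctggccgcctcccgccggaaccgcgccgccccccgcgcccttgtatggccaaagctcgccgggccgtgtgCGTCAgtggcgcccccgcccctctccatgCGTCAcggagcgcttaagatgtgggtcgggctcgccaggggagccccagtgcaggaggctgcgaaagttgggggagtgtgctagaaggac
Egr2 (chr10:67537619-67537918, plus strand): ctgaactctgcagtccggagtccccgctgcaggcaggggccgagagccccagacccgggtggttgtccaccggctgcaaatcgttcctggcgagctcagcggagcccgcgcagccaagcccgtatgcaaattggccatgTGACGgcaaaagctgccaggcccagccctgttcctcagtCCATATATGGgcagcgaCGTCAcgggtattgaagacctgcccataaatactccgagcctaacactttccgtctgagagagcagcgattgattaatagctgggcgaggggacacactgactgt
The Nr4a3 and Nr4a1 windows held 4 cores each, and the Egr2 window, 1 of 5 windows of that gene, held 2 cores and 1 CArG box; it is shown because it holds these. Counted by gene, since the table holds 32851 windows for 27025 genes, 50 of the 124 higher genes had a window with at least 1 core (40.3%), as did 1205 of 3057 measured genes (39.4%) and 6228 of all 27025 genes (23.0%). Genes with 4 or more cores in a window were 2 of 124 (1.61%), 23 of 3057 (0.752%) and 69 of 27025 (0.255%). The 2 higher genes are Nr4a3 and Nr4a1, whose windows are shown. A CArG box was found for 2.42% of the higher, 1.67% of the measured and 1.81% of all genes. The binding site of Egr factors, GCGNGGGCG on either strand, was found for 22.6%, 13.9% and 6.27% of these genes, and the AP-1 site TGANTCA for 9.68%, 5.89% and 8.97%. These are matches of letters in a window and not sites shown to be bound.

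Genes of the TCR response were higher as a group. Of 19 measured genes of that list 12 were higher and 0 lower, with median log2 folds of 0.94 in BKO, 0.84 in WT run 1 and 0.77 in WT run 2. Irf4, a factor whose level follows TCR strength, stood at 66.0 CPM in BKO, 53.2 CPM in WT run 1 and 52.2 CPM in WT run 2 in members, against 10.9 to 14.2 CPM in the other Tfh cells. Cd69, an early activation receptor, stood at 123 to 137 CPM in members and 38.0 to 39.6 CPM elsewhere. Subcluster 7 also held Cd69, at 103 CPM in BKO, 160 CPM in WT run 1 and 137 CPM in WT run 2. Nfkbid, which encodes an atypical inhibitor of NF-kB, stood at 97.7 to 109.6 CPM in members and 19.3 to 23.0 CPM elsewhere. Tagap, a GTPase activator of activated T cells, stood at 99.1 to 108 CPM in members and 20.9 to 22.7 CPM elsewhere. The NF-kB list had 5 of 11 genes higher (Rel, Relb, Nfkbia, Nfkbid and Nfkbiz) and 0 lower. Of 14 measured feedback inhibitors of TCR signalling 0 were higher and 0 lower, with Ptpn22 at 597 to 616 CPM in members and 414 to 452 CPM elsewhere.

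Calcineurin and NFAT genes, which carry the calcium arm of the TCR signal, had 3 of 13 higher and 1 lower. Nfatc1, an NFAT factor, stood at 472 to 542 CPM in members and 257 to 266 CPM elsewhere. Tox, an NFAT target and a factor of Tfh and of exhausted cells, stood at 3540 CPM in BKO, 4522 CPM in WT run 1 and 4533 CPM in WT run 2 in members and at 1953 CPM in BKO, 2713 CPM in WT run 1 and 2668 CPM in WT run 2 in the other Tfh cells. Orai1, the pore of the calcium channel that TCR signals open, was also higher, at 203 to 239 CPM in members and 86.1 to 89.9 CPM elsewhere. Ppp3ca, a catalytic subunit of calcineurin, was the lower one, at 11.8 CPM in BKO, 26.6 CPM in WT run 1 and 21.4 CPM in WT run 2, against 30.2 to 88.1 CPM.

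Inhibitory receptors and their ligands were higher in 8 of 10 measured genes and lower in 0, with median log2 folds of 0.88 in BKO, 1.17 in WT run 1 and 1.15 in WT run 2. Btla, a receptor that restrains T cell help, stood at 426 CPM in BKO, 621 CPM in WT run 1 and 631 CPM in WT run 2 in members, against 231 to 277 CPM elsewhere. Cd200, a ligand that restrains myeloid cells, stood at 223 to 267 CPM in members and 91.7 to 102 CPM elsewhere, and Nt5e, the ectoenzyme CD73, at 333 to 371 CPM in members and 179 to 200.3 CPM elsewhere. Lag3, a receptor for MHC class II, stood at 118 to 158 CPM in members and 53.1 to 80.3 CPM elsewhere. Cd160, Vsir, Pdcd1lg2 and Cd274 were the others called, and Pdcd1 was among those that were not.

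Of the 12 measured genes of B cell help, 5 were higher and 0 lower. Tnfsf8, the CD30 ligand, stood at 1022 CPM in BKO, 1311 CPM in WT run 1 and 1334 CPM in WT run 2 in members and at 275 CPM in BKO, 245 CPM in WT run 1 and 246 CPM in WT run 2 in the other Tfh cells. Cd40lg, the CD40 ligand that licenses B cells, stood at 311 CPM in BKO, 334 CPM in WT run 1 and 346 CPM in WT run 2 in members, against 204 CPM in BKO, 156 CPM in WT run 1 and 166 CPM in WT run 2. Its smallest fold over the samples was just above the rule. Subcluster 0 held Cd40lg near the level of the members, at 319 CPM in BKO, 309 CPM in WT run 1 and 321 CPM in WT run 2. Csf1, a growth factor of macrophages, stood at 40.5 to 66.2 CPM in members and 10.00 to 14.5 CPM elsewhere, and Tnf at 86.1 to 105 CPM in members and 31.3 to 37.4 CPM elsewhere. Il4, the cytokine of class switching to IgG1 and IgE, stood at 97.2 CPM in BKO, 155 CPM in WT run 1 and 164 CPM in WT run 2 in members and at 74.1 CPM in BKO, 77.9 CPM in WT run 1 and 84.9 CPM in WT run 2 in the other Tfh cells, and passed the rule in the WT runs only. Sh2d1a, the adaptor of SLAM receptors in Tfh cells, ran the other way without a call, at 368 to 490.5 CPM in members and 543 to 622 CPM elsewhere.

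Of 23 measured genes of Tfh identity, 5 were higher (Tox, Btla, Cd200, Angptl2 and Hif1a) and 0 lower. Angptl2, a secreted angiopoietin-like protein, stood at 163 CPM in BKO, 152 CPM in WT run 1 and 164 CPM in WT run 2 in members, against 25.8 to 46.1 CPM elsewhere. Bcl2 and its relatives Bcl2a1b and Bcl2a1d, which protect cells from death, were the 3 higher genes of 11 in the survival list, with Bcl2 at 246 to 434 CPM in members and 149 to 229 CPM elsewhere. Of 9 measured genes of the BMP and Wnt pathways that Sostdc1 acts on, Sostdc1 was the only one called. Tcf7, a factor of the Wnt pathway, stood at 544 to 617 CPM in members and 525 to 657 CPM elsewhere.

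The lower genes were led by Ccl5 and held genes of recirculating, cytotoxic and dividing cells; the count of 56 became 153 when each of the other subclusters was given equal weight. Ccl5, a chemokine of effector cells, stood at 1.90 CPM in BKO, 45.1 CPM in WT run 1 and 52.8 CPM in WT run 2 in members and at 41.2 CPM in BKO, 2633 CPM in WT run 1 and 2531 CPM in WT run 2 in the other Tfh cells. Klf2, a factor that keeps lymphocytes in circulation, stood at 29.9 CPM in BKO, 40.5 CPM in WT run 1 and 38.0 CPM in WT run 2 in members, against 103 to 114 CPM elsewhere. Il7r, the interleukin 7 receptor of resting and memory cells, stood at 38.3 to 77.7 CPM in members and 116 to 147 CPM elsewhere, and Eomes, a factor of cytotoxic cells, at 1.48 to 19.8 CPM in members and 13.1 to 74.2 CPM elsewhere. These levels elsewhere differed between subclusters. Klf2 stood at 14.0 to 30.6 CPM in subclusters 0 and 1, below the members of each sample. It stood at 35.6 to 42.5 CPM in subcluster 2 and at 466 to 643 CPM in subcluster 4. Il7r stood at 37.4 to 75.6 CPM in subcluster 6, near its level in the members. Selplg, a selectin ligand, Dtx1, a Notch regulator, and Cd96, a nectin receptor, were also lower. The histone genes Hist1h2ap, Hist1h2ae and Hist1h1b and the cell cycle genes Stmn1 and Hmgb2 were lower too, but 8 of the 10 measured cell cycle genes passed in neither direction.

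Lists of metabolism gave no calls in the members. Of 43 measured genes of oxidative phosphorylation 0 were higher and 0 lower, and the same holds for 12 genes of glycolysis. The list of heat shock and dissociation genes, which the handling of tissue can induce, had 4 of 12 higher (Junb, Hspa5, Ier2 and Zfp36) and 0 lower. Its summed level was 4745 CPM in BKO members, 4731 CPM in those of WT run 1 and 4546 CPM in those of WT run 2, against 3382 to 3813 CPM in the other Tfh cells, with Hspa1a and Hspa1b at 0 in the members of every sample. The part of dissociation in the Egr and Nr4a levels was not tested.

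The subcluster held most of the molecules of its leading genes among Tfh cells. With 21.7% of all Tfh UMIs in BKO and 16.5% in each WT run, it held 82.0% of the Sostdc1 UMIs of Tfh cells in BKO, 76.2% in WT run 1 and 75.6% in WT run 2. Its share of Egr3 was 80.6% in BKO, 71.2% in WT run 1 and 71.0% in WT run 2, and its share of Ralyl was 80.1% in BKO, 76.5% in WT run 1 and 76.7% in WT run 2. The subcluster held about as much of the Tnfsf8 molecules as all other Tfh cells together, with 50.7% in BKO, 51.3% in WT run 1 and 51.7% in WT run 2. Its share of Il21 was 45.3% in BKO, 50.7% in WT run 1 and 51.3% in WT run 2, and its share of Il4 was 26.7% in BKO, 28.2% in WT run 1 and 27.6% in WT run 2.

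Across the Tfh subclusters, the level of Sostdc1 next after subcluster 3 was that of subcluster 8 in BKO and WT run 1 and that of subcluster 4 in WT run 2. It stood at 204 CPM in BKO, 133 CPM in WT run 1 and 70.1 CPM in WT run 2 in subcluster 8, which holds 46 to 64 cells per sample. In subcluster 4 it stood at 74.6 CPM in BKO, 114 CPM in WT run 1 and 111 CPM in WT run 2. Il21 was highest in subcluster 3 and next in subcluster 2, with 62.6 CPM in BKO, 62.9 CPM in WT run 1 and 72.3 CPM in WT run 2. Il4 kept another order, with subcluster 0 highest at 172 CPM in BKO, 184 CPM in WT run 1 and 188 CPM in WT run 2, ahead of subcluster 3 in each sample. Tnfsf8 stood at 1022 to 1334 CPM in subcluster 3, against 311 to 371 CPM in subcluster 0 and 313 to 380.4 CPM in subcluster 4.

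**Figure D2:**
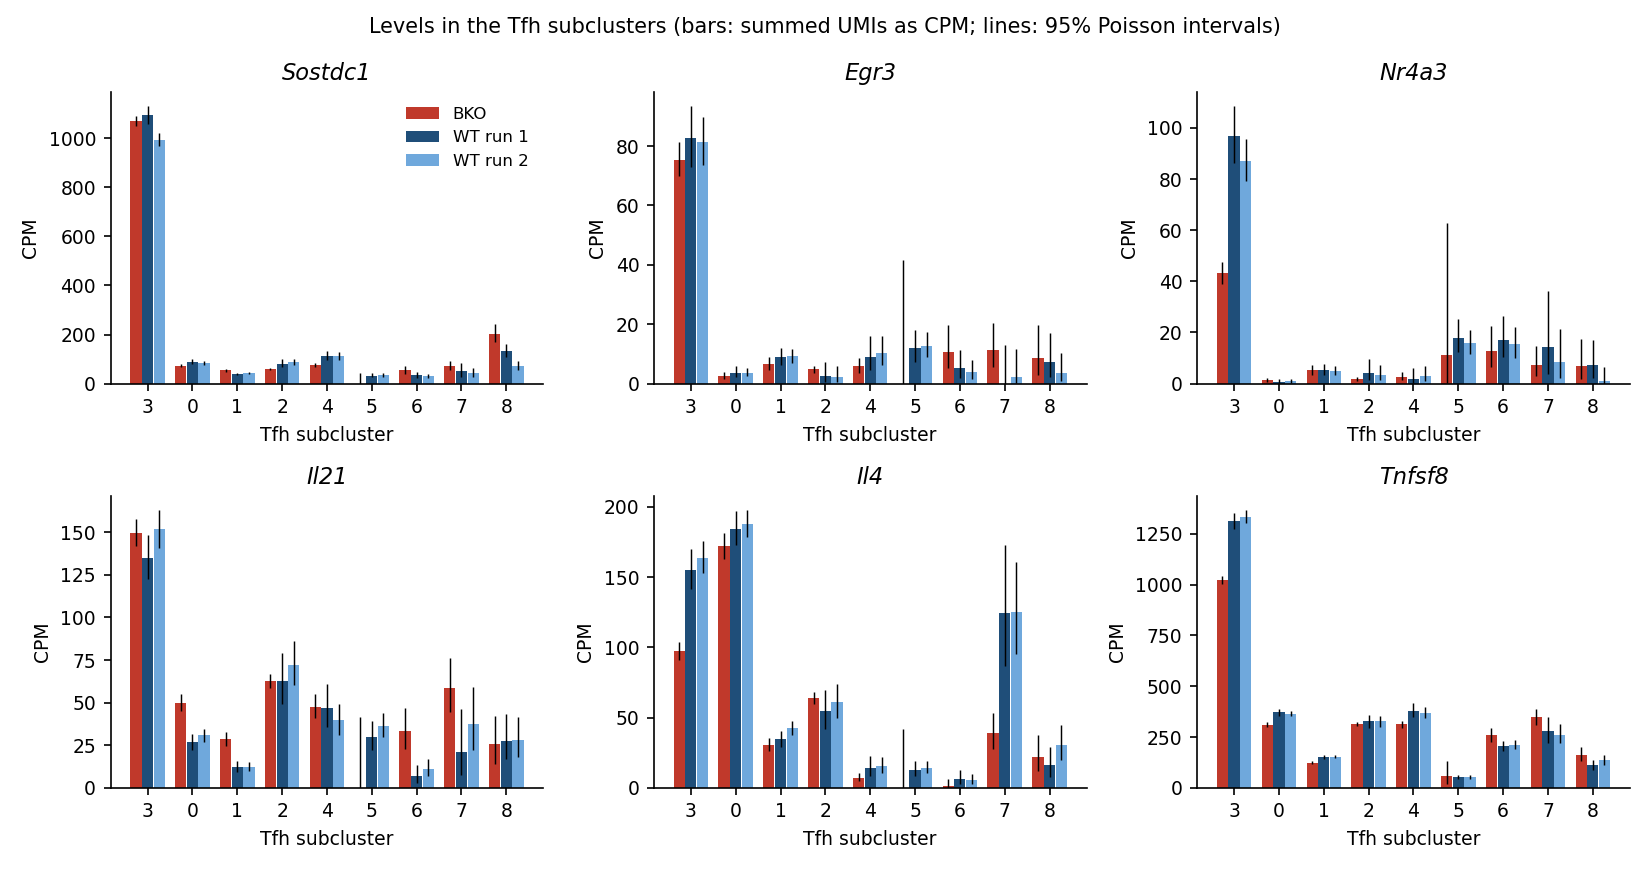
Levels of 6 genes in the 9 Tfh subclusters, subcluster 3 first (bars: summed UMIs as CPM; lines: exact 95% Poisson intervals; red BKO, blue WT runs). Sostdc1, Egr3, Nr4a3, Il21 and Tnfsf8 are highest in subcluster 3 in every sample, while Il4 is highest in subcluster 0.

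Not every member had a Sostdc1 molecule. After thinning each cell to 2500 UMIs, which left out 1 BKO member and 28 and 3 members of the WT runs, 56.1% of members had one in BKO (53.4 to 58.8), 58.8% in WT run 1 (54.7 to 62.9) and 58.3% in WT run 2 (54.2 to 62.2). Without thinning the shares were 60.8% in BKO, 62.8% in WT run 1 and 65.0% in WT run 2. In the other Tfh cells the thinned shares were 8.44% to 9.58%, and in Tfr cells 3.04% to 3.80%. Sostdc1 differed between Tfr subclusters, at 63.0 to 76.1 CPM in Tfr subcluster 0 and 5.45 to 10.8 CPM in Tfr subcluster 4. The Tfr share is therefore no measure of free RNA for Sostdc1. Barcodes of up to 50 UMIs in the unfiltered BKO matrix carried Sostdc1 at 157 CPM, which is above its level in the other Tfh cells. Egr3 was found in 11.9% of BKO members, 11.4% of those of WT run 1 and 11.2% of those of WT run 2, against 1.02% to 1.20% of the other Tfh cells and 2.83% to 4.35% of Tfr cells. The Tfr share of Egr3 lies above that of the other Tfh cells, so it is no measure of free RNA for that gene either.

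Within the subcluster, Sostdc1 and the early response genes were found mostly in different members. A comparison chosen after the values were seen took the thinned members by whether they had a UMI of Sostdc1 and a UMI of any of Egr1, Egr2, Egr3, Nr4a1, Nr4a2 and Nr4a3. Sostdc1 alone was found in 516 of 1308 members in BKO (39.5%, 36.8 to 42.2), 242 of 588 in WT run 1 (41.2%, 37.2 to 45.3) and 267 of 606 in WT run 2 (44.1%, 40.1 to 48.1). An Egr or Nr4a gene alone was found in 24.4% of members in BKO, 20.4% in WT run 1 and 20.3% in WT run 2. Both were found in 16.7% of members in BKO, 17.7% in WT run 1 and 14.2% in WT run 2, and neither in 19.5%, 20.7% and 21.5% of members of those samples. An Egr or Nr4a UMI was present in 29.7% of BKO members with Sostdc1 (26.4 to 33.2) and in 55.6% of those without it (51.4 to 59.7). In WT run 1 the shares were 30.1% with Sostdc1 and 49.6% without it, and in WT run 2 they were 24.4% and 48.6%.

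A cell could enter the subcluster through either set of genes, and the part of that choice in the inverse relation was not tested. Among all Tfh cells, where no such choice was made, an Egr or Nr4a UMI was more frequent with Sostdc1 than without it: 23.3% and 16.3% in BKO, 23.1% and 14.4% in WT run 1, and 19.0% and 15.9% in WT run 2. The state of a WT cell could be compared between the runs, which read the same library. A molecule missing from that library is missing in both runs, so agreement is partly built in. The comparison shows how far a second reading repeats the first and cannot show whether the states are distinct in the cells. Of the 223 cells with Sostdc1 alone in run 1 that could be compared, 200 (89.7%) were so in run 2 and 2 were in the opposite state. Of 101 with an Egr or Nr4a gene alone, 83 (82.2%) were so again and 0 were in the opposite state. Of 98 cells with both, 59 (60.2%) had both again, and of 117 with neither, 94 (80.3%) had neither again.

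The members of these states differed in many other genes. Leaving out the genes that define them, 65 of 3898 measured genes (1.67%) were at least 1.5 times higher with Sostdc1 alone in each sample and 139 (3.57%) were lower, which means higher with an Egr or Nr4a gene alone. The median log2 difference over all genes was -0.0002 in BKO, 0.012 in WT run 1 and 0.014 in WT run 2. Median UMIs were 6381 with Sostdc1 alone and 7122 with an Egr or Nr4a gene alone in BKO, 4457 and 5176 in WT run 1, and 7204 and 8014 in WT run 2.

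Among 13 measured genes of follicle positioning, S1pr1 and Cxcr4 were higher with Sostdc1 alone and Rgs16 with an Egr or Nr4a gene alone. S1pr1, the receptor by which lymphocytes leave tissue, stood at 84.4 CPM in BKO, 61.9 CPM in WT run 1 and 78.1 CPM in WT run 2 with Sostdc1 alone, against 17.8 to 40.3 CPM with an Egr or Nr4a gene alone. Cxcr4, the chemokine receptor of the germinal centre dark zone, stood at 76.2 CPM in BKO, 43.6 CPM in WT run 1 and 56.6 CPM in WT run 2, against 35.0 CPM in BKO, 15.2 CPM in WT run 1 and 27.1 CPM in WT run 2. For both receptors every sample with Sostdc1 alone lay above every sample with an Egr or Nr4a gene alone. Tcf7 stood at 664 to 729 CPM with Sostdc1 alone and 395 to 472 CPM with an Egr or Nr4a gene alone. Il16, a cytokine precursor, stood at 206 to 216 CPM with Sostdc1 alone and 92.5 to 123 CPM with an Egr or Nr4a gene alone, and Cdc25b, a cell cycle phosphatase, at 107 to 117 CPM with Sostdc1 alone and 43.0 to 48.5 CPM with an Egr or Nr4a gene alone. Trerf1, a zinc finger factor, stood at 482 to 609 CPM with Sostdc1 alone and 207 to 241 CPM with an Egr or Nr4a gene alone.

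With an Egr or Nr4a gene alone the wider TCR response stood higher. Of 21 measured genes of that list, 15 were on this side and 0 on the other. These cells were chosen by early response genes, so the list is not independent of that choice. Cd69 stood at 38.1 CPM in BKO, 45.3 CPM in WT run 1 and 41.5 CPM in WT run 2 with Sostdc1 alone, against 288 CPM in BKO, 285 CPM in WT run 1 and 299.9 CPM in WT run 2 with an Egr or Nr4a gene alone. Tagap stood at 13.1 to 24.3 CPM with Sostdc1 alone and 248 to 277 CPM with an Egr or Nr4a gene alone, and Nfkbid at 26.8 to 41.0 CPM with Sostdc1 alone and 213 to 260.5 CPM with an Egr or Nr4a gene alone. Irf4 stood at 15.7 to 28.5 CPM with Sostdc1 alone and 121 to 133 CPM with an Egr or Nr4a gene alone. Fos, the AP-1 subunit, stood at 2.54 CPM in BKO, 1.74 CPM in WT run 1 and 1.95 CPM in WT run 2 with Sostdc1 alone and at 39.5 CPM in BKO, 174 CPM in WT run 1 and 143 CPM in WT run 2 with an Egr or Nr4a gene alone. Of the feedback inhibitors, Spry1, Ubash3b, Dusp6 and Cblb were higher with an Egr or Nr4a gene alone and Ubash3a with Sostdc1 alone, of 18 measured. On the Egr or Nr4a side were also 6 of 12 NF-kB genes, among them Rel, the c-Rel subunit, at 99.7 to 117 CPM with Sostdc1 alone and 344 to 535 CPM with an Egr or Nr4a gene alone.

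Some ligands and inhibitory receptors were also higher with an Egr or Nr4a gene alone. Of 14 measured genes of B cell help, Tnf, Tnfsf8, Slamf1 and Ifng were on this side and 0 on the other. Tnf stood at 46.0 CPM in BKO, 43.6 CPM in WT run 1 and 39.0 CPM in WT run 2 with Sostdc1 alone and at 152 CPM in BKO, 256 CPM in WT run 1 and 237 CPM in WT run 2 with an Egr or Nr4a gene alone, and Tnfsf8 at 619.8 to 813 CPM with Sostdc1 alone and 1420 to 2024 CPM with an Egr or Nr4a gene alone. Of 10 measured inhibitory genes, Ctla4, Cd160, Vsir, Cd274 and Pdcd1lg2 were on this side and 0 on the other, while Pdcd1, at 375 to 455 CPM with Sostdc1 alone and 309 to 335 CPM with an Egr or Nr4a gene alone, was not called. Of 23 genes of Tfh identity, 0 were on this side and Tcf7 was on the other. Cd40lg and the cytokines Il21 and Il4 were called on neither side. Cd40lg stood at 266.5 to 277 CPM with Sostdc1 alone and 392.1 to 489.5 CPM with an Egr or Nr4a gene alone. Il21 stood at 115 to 125 CPM with Sostdc1 alone and 112 to 154 CPM with an Egr or Nr4a gene alone, and Il4 at 110.1 to 153 CPM with Sostdc1 alone and 90.4 to 229 CPM with an Egr or Nr4a gene alone. Of the 167 genes measured here among the 174 that were higher in the subcluster, 63 were higher with an Egr or Nr4a gene alone and 5 with Sostdc1 alone.

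**Figure D3:**
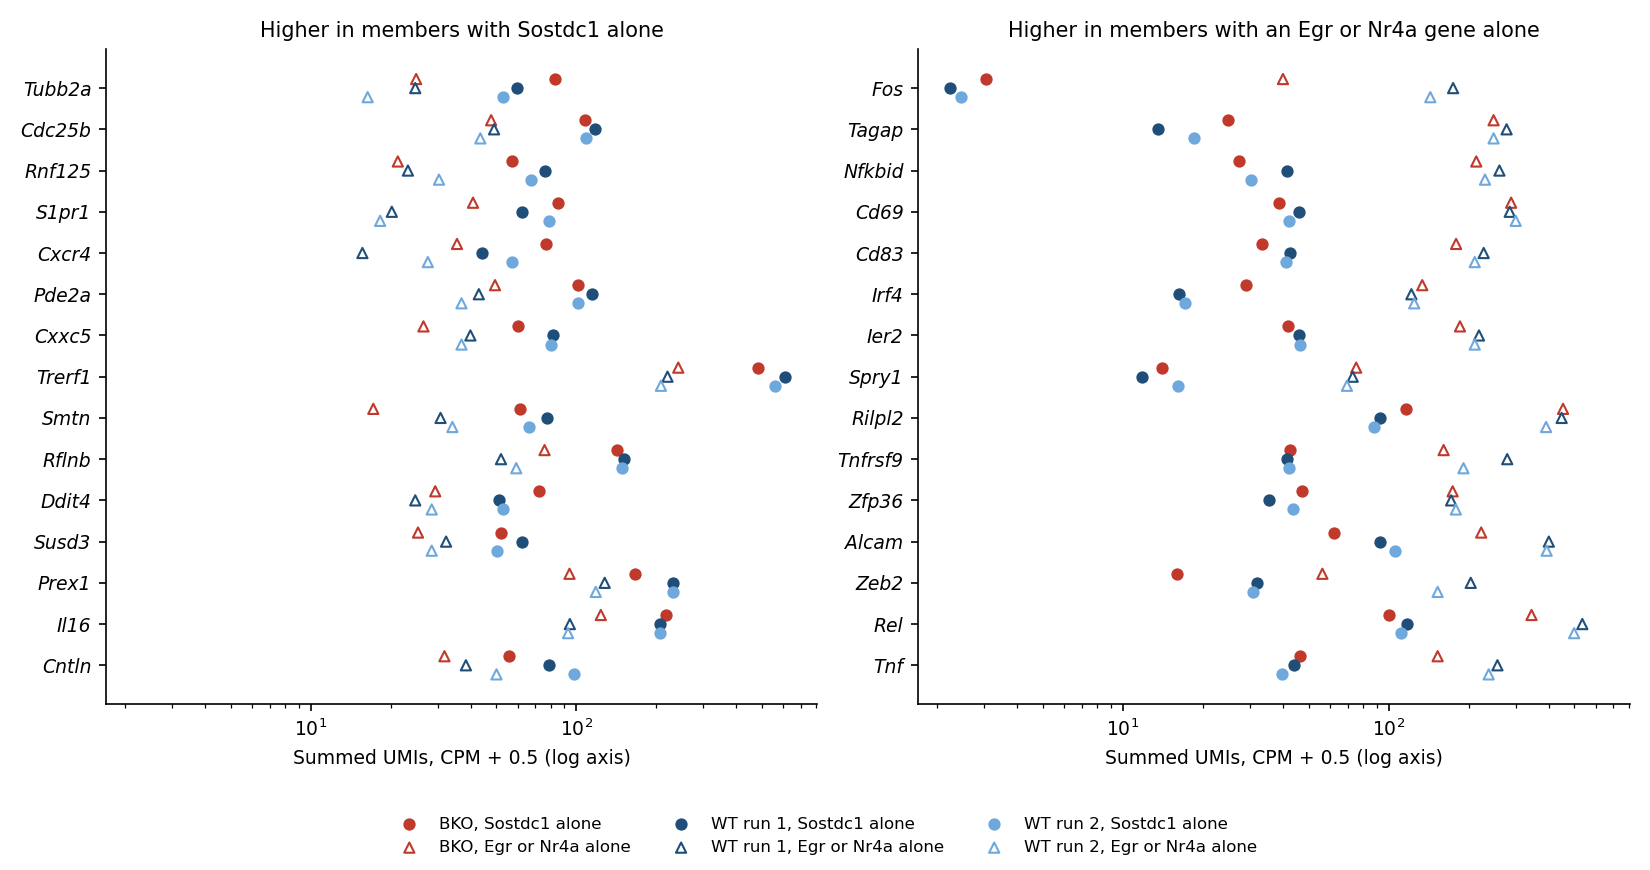
Summed UMIs (CPM with 0.5 added, log axis) in members with Sostdc1 alone (filled circles) and with an Egr or Nr4a gene alone (open triangles), in red for BKO and in blue for the WT runs. Shown are 15 of the 65 genes higher with Sostdc1 alone and the 15 named genes of highest fold among the 139 higher with an Egr or Nr4a gene alone, such as Fos, Tagap, Cd69 and Irf4.

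The subcluster took a larger part of Tfh cells in BKO than in WT. It held 20.5% of Tfh cells in BKO (19.5 to 21.5), against 16.5% in WT run 1 (15.3 to 17.8) and 16.6% in WT run 2 (15.4 to 17.8). The intervals do not overlap, but they cover the draw of cells and not mice, and with 1 library per genotype the difference has no replicate check. Subclusters 5 and 6, led by Ccl5 or by Xcl1 and Eomes, hold 102 BKO cells, against 540 cells in each WT run. Without them the shares were 20.8% in BKO, 19.3% in WT run 1 and 19.5% in WT run 2. The difference between BKO and the WT mean was then 1.42 in place of 3.92 percentage points. Subcluster 2, which was kept in these shares, was larger in BKO. It held 2180 of 6389 Tfh cells in BKO, 257 of 3727 in WT run 1 and 269 of 3668 in WT run 2. Shares without subcluster 2 were not computed, and the part of the mix of subclusters in the difference was not tested. The shares of members with each combination of Sostdc1 and early response genes, given above, had intervals in BKO that overlap those of both WT runs for every combination.

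Most genes of the subcluster's own programme were not called between BKO and WT members, but a larger part of them than of all genes was lower. Genes were called between genotypes when BKO lay at least 1.5 times beyond both WT runs, among genes of at least 50 CPM in BKO or in the WT mean. Of 3813 measured genes 11 were higher (0.288%) and 66 lower (1.73%) in BKO members, while in the other Tfh cells 21 (0.559%) were higher and 116 (3.09%) lower of 3758. Scaling decides the balance of these calls: TMM, which moves all log2 ratios up by 0.13 from a median of -0.09, gave 27 higher and 28 lower, so 49.1% of calls on the higher side in place of 14.3%. Without WT run 2, against WT run 1 alone, 38 were higher and 92 lower. Sostdc1 had a log2 ratio of 0.03, Egr1 0.06, Egr2 0.18, Egr3 -0.12, Nr4a1 -0.20, Il21 0.06, Cd40lg -0.13 and Bcl6 -0.13, none past the rule, and the signs of Sostdc1, Egr1, Egr2, Egr3, Il21 and Cd40lg changed under at least 1 alternative. Of the 174 genes that were higher in the subcluster 0 were higher and 19 lower in BKO members, with a median log2 ratio of -0.17. Over all 3813 measured genes 66 were lower, with a median of -0.09. With TMM 2 of the 174 were higher and 11 lower, with a median of -0.04, against 28 lower over all measured genes. The 174 genes have a median intron length of 44.8 kb, against 27.8 kb over all measured genes. With the trend of the ratios with intron length taken off, 2 of the 174 were higher and 7 lower, with a median of -0.06. Over all measured genes 23 were then lower.

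Il21 passed the rule between genotypes in the other Tfh cells and not in the members. In members it stood at 149.6 CPM in BKO, against 135 and 152 CPM in the WT runs. In the other Tfh cells it stood at 50.1 CPM in BKO, against 25.8 and 28.6 CPM in the WT runs, a log2 ratio of 0.87, which passed the rule. The barcodes of up to 50 UMIs of the BKO matrix carried Il21 at 55.1 CPM, which is above its level in the other Tfh cells of BKO; such barcodes were not analysed for WT, and the part of free RNA in this ratio was not tested. In subcluster 0 Il21 stood at 49.7 CPM in BKO, 26.8 CPM in WT run 1 and 30.7 CPM in WT run 2. In subcluster 1 it stood at 28.4 CPM in BKO, 12.3 CPM in WT run 1 and 12.2 CPM in WT run 2. In the same order, it stood at 62.6, 62.9 and 72.3 CPM in subcluster 2. In subcluster 4 it stood at 47.7, 46.8 and 39.5 CPM. In subclusters 6 and 7 BKO was again highest, at 33.2 and 58.6 CPM, against 6.86 to 37.5 CPM in WT. Subcluster 2 made up 2180 of the 5080 other Tfh cells in BKO. In WT run 1 it made up 257 of 3111, and in WT run 2 269 of 3059. The part of this mix in the ratio of 0.87 was not tested. The difference between the ratios inside and outside the subcluster was not tested.

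The genes higher in BKO members were few. Cxcl10, a chemokine induced by interferon, stood at 50.3 CPM in BKO, against 20.8 and 22.4 CPM in the WT runs, a log2 ratio of 1.20 (2.30 times). Ly6a, which encodes the interferon-inducible protein Sca-1, stood at 361 CPM in BKO, against 238 and 218 CPM in the WT runs (0.66). H2-Q2, an MHC class I gene, stood at 62.1 CPM in BKO, against 38.3 and 33.4 CPM in the WT runs (0.78), and Tpi1, an enzyme of glycolysis, at 74.7 CPM in BKO, against 49.6 and 46.1 CPM in the WT runs (0.64). Tpi1 was no longer called with cells thinned to 2500 UMIs (0.53), and neither Ly6a (0.61) nor Tpi1 (0.64) was called when WT was limited to cells that both runs put in the subcluster. The other 7 were ribosomal genes, pseudogenes or unnamed models. Of the 11 genes, 7 were also higher in the other Tfh cells, which is 63.6% of these calls and 33.3% of those.

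The genes lower in BKO members included receptors and enzymes. B3galt1, a galactosyltransferase, stood at 20.03 CPM in BKO, against 69.8 and 66.3 CPM in the WT runs (-1.74). Cd226, an activating receptor for nectins, stood at 39.6 CPM in BKO, against 101 and 103 CPM in the WT runs (-1.35), and Zeb2, a factor of effector cells, at 38.5 CPM in BKO, against 91.2 and 88.2 CPM in the WT runs (-1.21). For each of them BKO lay below both WT runs by 2 times or more. Cobll1 (-1.01), Cd96 (-0.97), Dgki (-0.94) and St6galnac3 (-0.92), a sialyltransferase, followed. With cells thinned to 2500 UMIs Cobll1, at -0.98, was no longer called. Against WT run 1 alone, which shares the batch label of BKO, the log2 ratios of B3galt1, Cd226 and Zeb2 were -1.77, -1.34 and -1.23, and that of Cxcl10 was 1.26.

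The 19 lower calls among the subcluster's own programme included Ralyl, Nr4a3, Bcl2 and Csf1, along with Dgki and Zeb2 named above. Il7r, Il4 and Nrp1, taken from the fixed lists, were also called lower. Ralyl stood at 318 CPM in BKO, against 642 and 697 CPM in the WT runs (-1.07), and Nr4a3 at 43.2 CPM in BKO, against 97.0 and 87.2 CPM in the WT runs (-1.08). Il4 stood at 97.2 CPM in BKO, against 155 and 164 CPM in the WT runs (-0.71), and in the other Tfh cells at 74.1 CPM in BKO, against 77.9 and 84.9 CPM in the WT runs (-0.13), where it was not called. The other subclusters differed: Il4 stood at 39.1 CPM in BKO, against 124 and 125 CPM in the WT runs, in subcluster 7. In subcluster 4 it stood at 7.10 CPM, against 14.0 and 15.4 CPM. In subcluster 0 it stood at 172 CPM, against 184 and 188 CPM, and in subcluster 2 at 63.9 CPM, against 54.5 and 61.0 CPM. The part of the mix of subclusters in the ratio of -0.13 was not tested. Il7r stood at 38.3 CPM in BKO, against 76.6 and 77.7 CPM in the WT runs (-1.002), Bcl2 at 246 CPM in BKO, against 434 and 405 CPM in the WT runs (-0.77) and Csf1 at 40.5 CPM in BKO, against 66.2 and 65.5 CPM in the WT runs (-0.70). With TMM, the ratios of Il4 (-0.58), Csf1 (-0.57) and Nrp1 (-0.50) were no longer past the rule. Within the members with an Egr or Nr4a gene alone, Nr4a3 stood at 122 CPM in BKO, against 362 and 333 CPM in the WT runs, while Egr2 stood at 249.6 CPM in BKO, against 232 and 245 CPM in the WT runs.

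The lower calls fell mainly on genes with long introns. Of the 66, 42 were among the 649 measured genes with over 100 kb of intron, whose median log2 ratio was -0.33, while all 11 higher calls were among the 498 genes with under 3 kb, whose median was 0.19. After the trend with intron length was taken off, an alternative added after the values were seen, 15 genes were higher and 23 lower. The ratios of Cxcl10 (1.01), B3galt1 (-1.36), Cd226 (-1.07), Zeb2 (-0.93), Ralyl (-0.70), Nr4a3 (-0.94), Il7r (-0.99) and Il4 (-0.74) still passed the rule, while those of Ly6a (0.47), H2-Q2 (0.59), Tpi1 (0.46), Dgki (-0.57), St6galnac3 (-0.55), Bcl2 (-0.47) and Nrp1 (-0.35) did not. The part of the Cell Ranger release in these ratios and that of the genotype cannot be told apart.

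**Figure D4:**
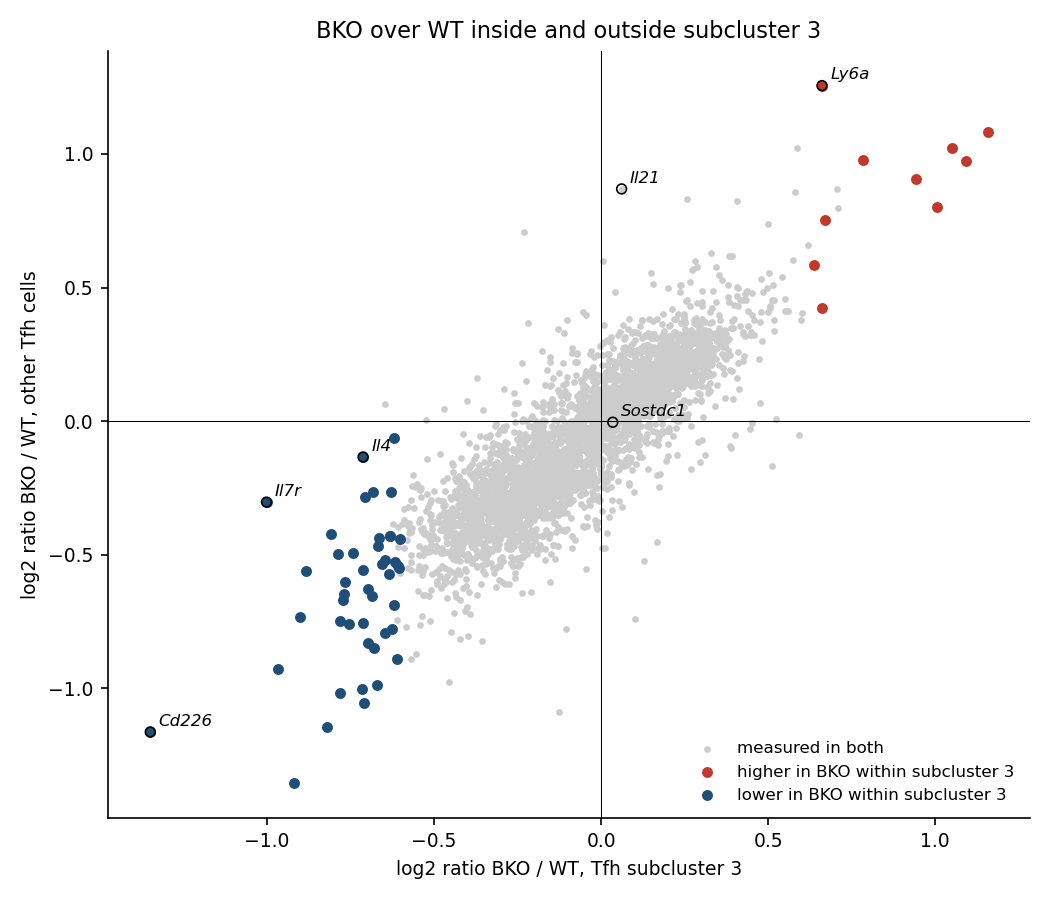
Log2 ratio of BKO to the WT mean in Tfh subcluster 3 (x axis) and in the other Tfh cells (y axis) for genes measured in both, with genes higher in BKO members in red and lower ones in blue. Il21 lies near 0 in the subcluster and at 0.87 outside it, and Il4 and Il7r lie further below 0 inside than outside.

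The Tfr cells, which were clustered apart from the Tfh cells, held a subcluster with part of the same programme. Tfr subcluster 3 had 388 cells in BKO and 213 and 232 in the WT runs. Of 3853 measured genes 149 (3.87%) were at least 1.5 times higher there than in the other Tfr cells in each sample. Of the 174 genes of Tfh subcluster 3, 142 were measured in this comparison, and 84 of them (59.2%) were higher in Tfr subcluster 3 and 0 lower, which makes 56.4% of the 149. In Tfr subclusters 0, 1, 2 and 4 between 0 and 4 of the same genes were higher and between 11 and 37 lower. Over 3356 genes, the log2 folds of Tfr subcluster 3 correlated with those of Tfh subcluster 3 at r = 0.69 in BKO and 0.74 in each WT run, across genes of the same library, which are not independent replicates.

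Genes of the early response were among those shared. Nr4a3 stood at 79.1 CPM in BKO, 175 CPM in WT run 1 and 189 CPM in WT run 2 in Tfr subcluster 3, against 5.64 to 6.39 CPM in the other Tfr cells. Egr3 stood at 75.5 CPM in BKO, 108 CPM in WT run 1 and 128 CPM in WT run 2, against 6.77 to 10.8 CPM, and Egr2 at 94.4 CPM in BKO, 93.2 CPM in WT run 1 and 106 CPM in WT run 2, against 8.47 to 13.2 CPM. Nr4a3 was lower in BKO than in both WT runs here as in the Tfh members. Cd69 stood at 194 to 224 CPM in Tfr subcluster 3 and 44.3 to 61.6 CPM in the other Tfr cells. Cd40lg stood at 89.8 to 145 CPM in Tfr subcluster 3 and 41.1 to 46.2 CPM in the other Tfr cells. Of the genes on the Egr or Nr4a side of the Tfh members, 37 of 59 measured (62.7%) were higher in Tfr subcluster 3 and of those on neither side 42 of 77 (54.5%).

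Sostdc1 itself was not part of what the Tfr cells shared. It stood at 52.0 CPM in BKO, 34.3 CPM in WT run 1 and 50.3 CPM in WT run 2 in Tfr subcluster 3 and at 32.4 CPM in BKO, 42.1 CPM in WT run 1 and 34.9 CPM in WT run 2 in the other Tfr cells. Both lie below its level in the other Tfh cells and in the barcodes of up to 50 UMIs. Ralyl stood at 8.82 to 33.4 CPM in Tfr subcluster 3 and Hs6st3 at 0.817 to 13.1 CPM, both under the minimum for a call. Il21 was also under that minimum, at 16.7 CPM in BKO, 35.1 CPM in WT run 1 and 34.3 CPM in WT run 2 in Tfr subcluster 3. In the other Tfr cells it stood at 4.23 to 9.91 CPM, so its folds were 1.65 in BKO, 4.63 in WT run 1 and 7.37 in WT run 2. Tnfsf8 was measured and not called, at 134 to 172 CPM in Tfr subcluster 3 and 83.0 to 125 CPM in the other Tfr cells. Of the WT members of 1 run that the other run placed elsewhere, 16 of run 1 and 8 of run 2 were in Tfr subcluster 3.

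**Figure D5:**
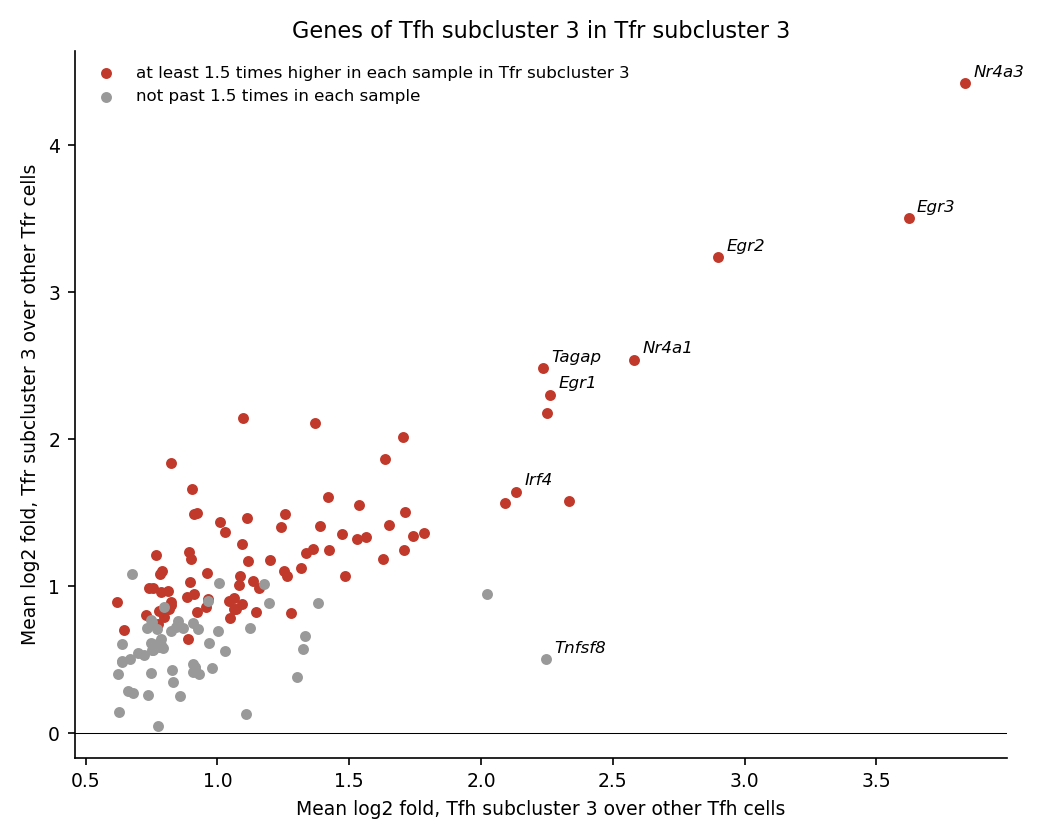
Mean log2 fold over the 3 samples of genes higher in Tfh subcluster 3, in Tfh subcluster 3 over the other Tfh cells (x axis) and in Tfr subcluster 3 over the other Tfr cells (y axis). The 142 genes measured in both are shown, with the 84 called higher in Tfr subcluster 3 in red; Nr4a3, Egr3 and Egr2 are high on both axes, while Tnfsf8 is high on the x axis alone.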

How the data were processed

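Raw UMI counts were deposited for each sample, along with the authors' tables of Tfh and Tfr cells that list UMI totals, genes per cell, percent of mitochondrial UMIs and subcluster numbers. Per the headers of these tables, the deposited percent values lie under 10% and genes under 4000, and subclusters come from shared-nearest-neighbour clustering at resolution 0.3. Per the file headers, WT counts come from cellranger 7.0.1 and BKO counts from Cell Ranger 4, on mm10. The sources used here do not give the treatment of doublets, and no caller was applied. RNA was counted with the 10x Chromium assay, per the labels' protocols.

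UMI counts were summed per sample and subcluster as CPM, with 0.5 CPM added for ratios. With 1 library per genotype a rule of size (1.5 times, minimum 50 CPM) stands in for tests, and no p-value is given. Members, gene lists and rules were chosen with earlier results of these data known. Named genes are the label's markers, the 15 per direction of largest smallest fold in the subcluster, the 10 per direction between genotypes, list members called, the 4 members of highest CPM per list described, and Bcl6, Cxcr5, Pdcd1, Icos, Il4, Cd40lg, Foxp3, Cd4 and Siglecg. Ribosomal and mitochondrial genes, unnamed models, and segments of TCR and immunoglobulin genes are left out. Genes named for the states within the subcluster and for Tfr subcluster 3, and Fos, Hspa1a and Hspa1b, were chosen after their values were seen. Some genes that the rule takes are not reported here. Of the 32285 features, 32235 (99.8%) were found in GENCODE vM21. The tools were Python 3.11.15, numpy 2.4.6, scipy 1.17.1, pandas 2.3.3, matplotlib 3.10.9, R 4.3.3 and edgeR 4.0.16 (TMM factors only). The counting rule was tested on simulated data.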

Additional observations from a re-analysis of the deposited data

How the results depend on the processing

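No paired analysis was possible because WT and BKO share only 1 replicate number and the WT samples are the same cells. No result past the rule of size changed direction under the alternatives tried. Uncalled ratios of BKO to WT near 0 did, such as that of Sostdc1 (-0.16 with the intron trend taken off), and the median ratio over all genes was 0.04 with TMM in place of -0.09. Without subclusters 5 and 6 the share of Tfh cells in subcluster 3 was 19.3% in WT run 1 and 19.5% in WT run 2, and the difference between BKO and WT was 1.42 points (3.89 to 3.96 points without a WT replicate). Subcluster 2, which held a larger part of Tfh cells in BKO than in WT, was kept in these shares. Genes lower in subcluster 3 numbered 111 at a minimum of 20 CPM and 153 with equal weight for the other subclusters. At 100 CPM 111 were higher and 18 lower, and at 2 times 75 and 20. Leaving out a WT replicate gave 175 to 177 higher and 47 to 49 lower.

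Between genotypes within the subcluster, TMM gave 27 higher and 28 lower, 20 CPM gave 20 and 141, 100 CPM gave 6 and 34, and 2 times gave 1 and 5. Library sizes without ribosomal, mitochondrial, TCR and immunoglobulin genes gave 19 higher. Without WT replicate 1 there were 13 higher and 81 lower, and without WT replicate 2, 38 and 92. In alternatives added after seeing the data, taking off the intron trend left 23 lower, and dropping unnamed models and those classes left 4 higher. Of the genes of subcluster 3, 38 were 2 times higher in Tfr subcluster 3. In the comparison of members with Sostdc1 alone and those with an Egr or Nr4a gene alone, also added after seeing the data, 100 CPM gave 32 higher, 2 times gave 12 higher and 54 lower, and leaving out a WT replicate gave 73 to 85 higher and 152 to 163 lower. The causes were not tested. Over the values of single genes, 67 moved beyond their counting interval and 406 did not. Depth limits statements on genes under 50 CPM, such as Fos and Nr4a2, and shares of cells with a UMI.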
